A study of Mus musculus with 7 samples.

Results

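The 10 genes followed here belong to the Notch pathway: the transcriptional repressors Hes1, Hes2, Hes3, Hes5, Hes7, Hey1, Hey2 and Heyl and the ligands Dll1 and Dll4. They were chosen by name, with earlier results of these data known, and read at their RefSeq coordinates on mm10. They are 10 of the 21627 protein-coding genes counted on the autosomes and X. Each called region of trimethylated histone H3 lysine 27 (H3K27me3) that overlapped a gene body extended by 10 kb on both sides was assigned to that gene. Chromatin immunoprecipitation and sequencing had been carried out on epidermal progenitors sorted from the back skin of newborn mice (postnatal day 0) as EpCAM-positive, Sca1-positive and high in α6-integrin. Control cells were set beside cells labelled Ring1a/b 2KO, which lack both Ring1a and Ring1b, the ubiquitin ligases of Polycomb repressive complex 1. The sources used here do not give what drives the deletion, how many animals were used or whether they were pooled. For each genotype the labels give 2 immunoprecipitation libraries, and 1 peak list was deposited, with 3631 peaks in control and 2340 in 2KO cells. The titles of both 2KO libraries name H3K27me1, whereas their antibody field and the list name H3K27me3, and the list was read as H3K27me3.

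Notch signalling passes between touching cells. A Delta-like or Jagged ligand on one cell binds a Notch receptor on its neighbour, the receptor is cut, and its intracellular part joins the DNA-binding protein RBPJ to switch on target genes, of which the Hes and Hey genes are the best known. Hes and Hey proteins are basic helix-loop-helix repressors that in turn silence differentiation genes. In the epidermis Notch signalling is known for driving basal progenitors into the spinous layer. H3K27me3 is the repressive mark of Polycomb repressive complex 2, and developmental genes that a given lineage does not use are its usual carriers.

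The lists hold positions only, with no height, score or p-value. With 1 list per genotype there is no spread between replicates and no test of control against 2KO cells, and depth is unknown. A gene without a called peak is therefore not shown to lack the mark, and a difference between the lists is a difference between 2 sets of calls. None of the 6 markers of basal epidermal progenitors (among them Krt5, Krt14 and Itga6) had a peak in either list. Of the markers of other cell types, 0 of 2 suprabasal and 0 of 2 endothelial genes had one, 3 of 4 Merkel cell and 2 of 2 dermal fibroblast genes had one in both lists, 1 of 3 melanocyte genes had a control peak alone and 1 of 2 immune genes a 2KO peak alone. For comparison, 82.8% of all protein-coding genes had a peak in neither list and 8.90% in both. The marker counts say nothing on cell numbers and do not check the sorted population. Ring1 and Rnf2, which encode Ring1a and Ring1b, and Eed had no peak in either list, so the peaks do not check the genotype.

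Of the 10 genes, 7 had a peak in control cells (Hes2, Hes3, Hes5, Hey1, Hey2, Heyl and Dll4), compared with 14.9% of all protein-coding genes under the same rule. In 2KO cells 6 of the 10 had a peak, compared with 11.2% of all genes. Hes2, Hes3, Hes5, Hey2, Heyl and Dll4 were called in both lists, Hey1 in the control list only, and Hes1, Hes7 and Dll1 in neither. Over all genes the corresponding shares were 8.90% in both lists, 5.98% with a control peak alone, 2.27% with a 2KO peak alone and 82.8% in neither. Among the control-called genes of the genome, 59.8% were also called in 2KO cells (95% Wilson interval 58.1 to 61.5, counting error only), against 6 of 7 here. The interval treats genes as independent, although neighbours such as Hes3 and Gpr153 can share a peak. In all, 9 control peaks with a summed full width of 64.2 kb and 7 2KO peaks with a summed full width of 51.4 kb were assigned. They shared 49.4 kb, which is 77.0% of the control bases, compared with 47.5% over the whole control list. The genes were chosen with earlier results of these data known, and peak width was not matched. These comparisons therefore describe the calls and are no test.

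**Figure D1:**
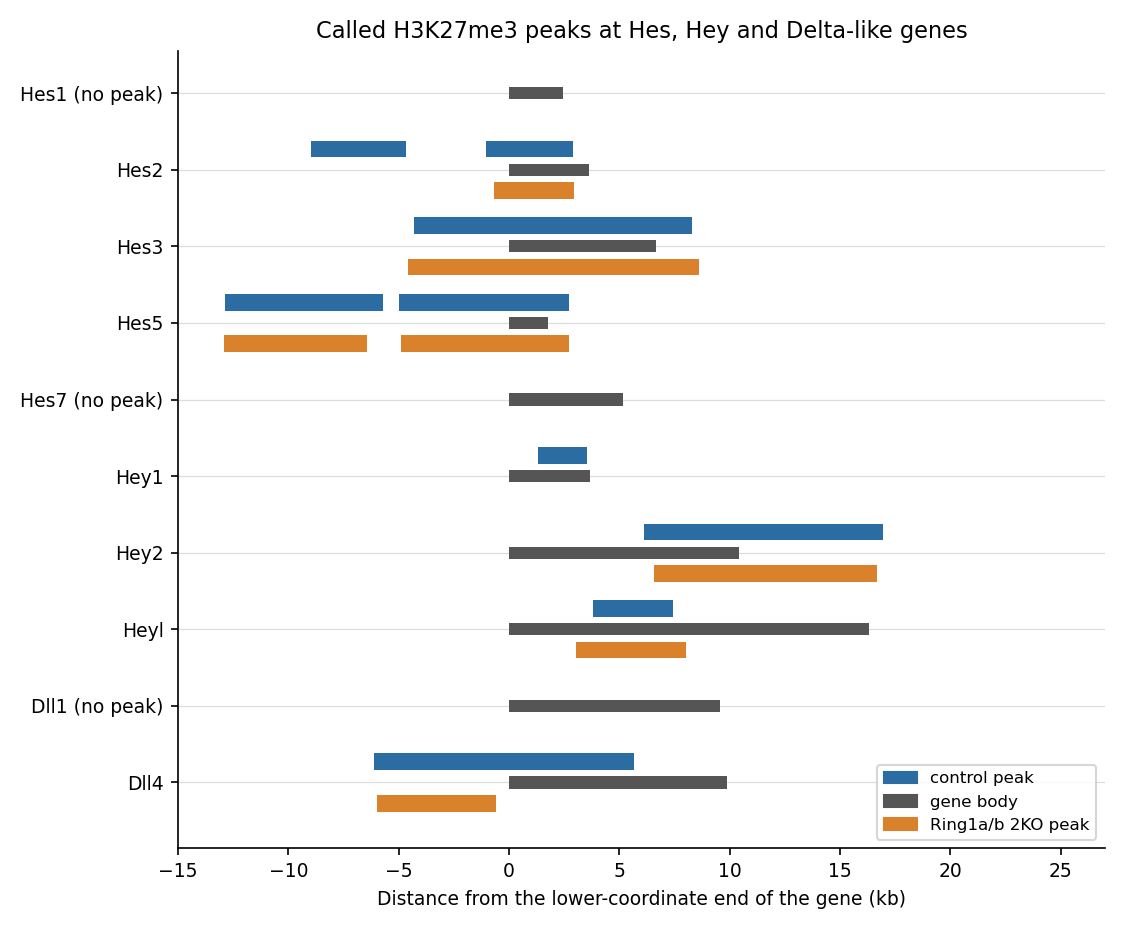
Called H3K27me3 peaks of the control list (blue, above) and the Ring1a/b 2KO list (orange, below) at each of the 10 genes, drawn to scale against the gene body (grey), with distance in kb from the lower-coordinate end of the gene on the x axis. The peaks at Hes3, Hes5 and Hey2 nearly coincide, Hey1 has a control peak only, and the 2KO peak of Dll4 stops short of the gene.

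**Figure D2:**
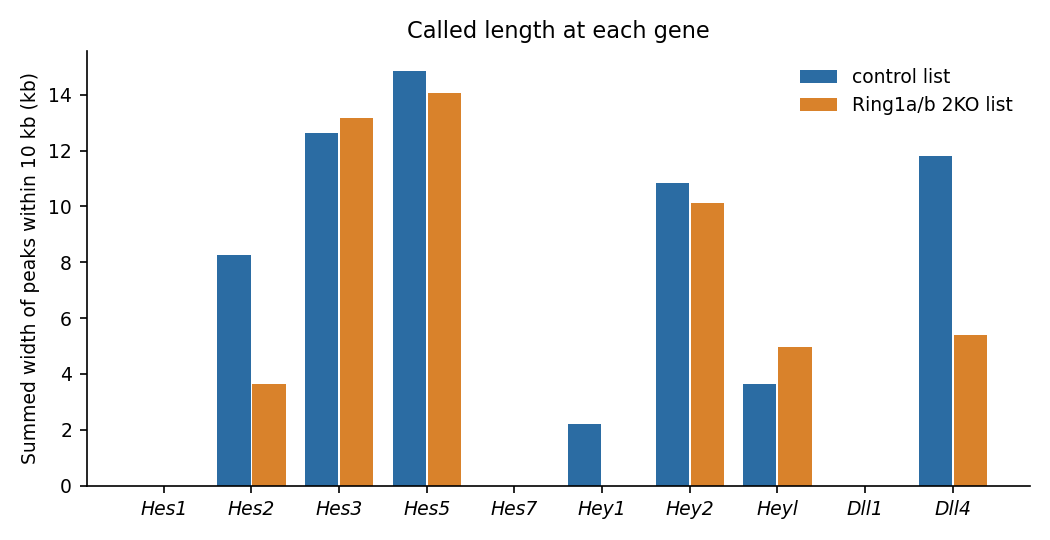
Summed full width in kb of all peaks that reach within 10 kb of each gene, in the control list (blue) and the 2KO list (orange). There is 1 list per genotype and there are no error bars. Bases of a peak beyond 10 kb are included. Of the upstream Hes5 peak, 4301 of 7152 bp (control) and 3563 of 6468 bp (2KO) lay within 10 kb. The sum is alike in both lists at Hes3, Hes5 and Hey2, is smaller in the 2KO list at Hes2 and Dll4, and is 0 in both lists at Hes1, Hes7 and Dll1.

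The promoters available for these genes are shown so that called and uncalled start sites can be read side by side. They come from RefSeq promoters on GRCm38.p6, the same build as mm10; the table holds 6 start sites of 5 of the 10 genes, and each sequence spans 250 bases before to 50 bases from the start site on. Hes5 and Hey2 were called across the start site in both lists, Dll4 in the control list only, and Hes7 and Dll1 in neither. No promoter was available for Hes1, Hes2, Hes3, Hey1 or Heyl, and that of the inner start site of Dll1 is not printed. Capitals mark TGGGAA or its reverse complement, the core letters bound by RBPJ.
Hes5, chr4:154960673-154960972, plus strand: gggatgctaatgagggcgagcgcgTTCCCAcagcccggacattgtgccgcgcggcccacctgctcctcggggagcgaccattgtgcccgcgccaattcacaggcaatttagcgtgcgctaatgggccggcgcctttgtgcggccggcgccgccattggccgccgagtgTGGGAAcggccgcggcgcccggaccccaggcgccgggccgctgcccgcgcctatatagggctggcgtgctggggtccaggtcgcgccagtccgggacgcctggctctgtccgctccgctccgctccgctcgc
Hey2, chr10:30842734-30843033, minus strand: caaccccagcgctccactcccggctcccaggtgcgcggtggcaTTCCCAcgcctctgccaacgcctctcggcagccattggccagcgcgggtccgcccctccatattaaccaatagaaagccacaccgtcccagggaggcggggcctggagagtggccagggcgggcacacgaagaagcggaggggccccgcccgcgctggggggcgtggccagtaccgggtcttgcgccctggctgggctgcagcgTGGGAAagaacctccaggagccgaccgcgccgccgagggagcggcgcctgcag
Dll4, chr2:119325534-119325833, plus strand: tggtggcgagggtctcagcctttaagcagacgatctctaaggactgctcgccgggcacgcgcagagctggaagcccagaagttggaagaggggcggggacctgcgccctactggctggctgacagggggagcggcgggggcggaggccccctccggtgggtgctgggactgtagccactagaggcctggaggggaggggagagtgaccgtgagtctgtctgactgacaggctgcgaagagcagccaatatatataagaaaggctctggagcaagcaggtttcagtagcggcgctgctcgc
Hes7, chr11:69120203-69120502, plus strand: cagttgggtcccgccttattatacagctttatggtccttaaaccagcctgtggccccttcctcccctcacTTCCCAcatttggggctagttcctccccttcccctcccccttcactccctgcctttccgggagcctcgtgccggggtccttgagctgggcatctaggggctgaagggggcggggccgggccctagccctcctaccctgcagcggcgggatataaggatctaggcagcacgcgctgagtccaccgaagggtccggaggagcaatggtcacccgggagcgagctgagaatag
Dll1, outer of 2 start sites, chr17:15376883-15377182, minus strand: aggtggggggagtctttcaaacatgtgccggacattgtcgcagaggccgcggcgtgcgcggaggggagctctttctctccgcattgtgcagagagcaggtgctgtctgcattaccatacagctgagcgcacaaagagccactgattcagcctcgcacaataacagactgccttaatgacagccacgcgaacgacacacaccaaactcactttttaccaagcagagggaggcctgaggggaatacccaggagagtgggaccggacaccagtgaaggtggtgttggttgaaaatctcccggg

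Among the Hes factors, Hes5, a Notch effector of neural progenitors (chromosome 4, 154960626 to 154962372), lay wholly inside a peak in both lists. That peak ran from 154955655 to 154963332 in control cells (7.68 kb) and from 154955742 to 154963321 in 2KO cells (7.58 kb). Its edges thus differed by 87 and 11 bp. A second peak upstream ran from 154947775 to 154954926 in control cells (7.15 kb) and from 154947721 to 154954188 in 2KO cells (6.47 kb). Its outer edge differed by 54 bp and the edge towards Hes5 by 738 bp, so that the uncalled gap between both peaks measured 728 bp in control and 1553 bp in 2KO cells. The start site of Hes5 given in the table, at 154960923, lay 5268 bp from the upstream and 2409 bp from the downstream edge of the control peak, and all 300 bases of its promoter shown above were inside the peak in both lists.

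Hes3, known for a role at the boundary of midbrain and hindbrain (chromosome 4, 152285250 to 152291911), was also covered over its whole length in both lists. The peak ran from 152280920 to 152293543 in control cells (12.6 kb) and from 152280658 to 152293837 in 2KO cells (13.2 kb), so the 2KO peak reached 262 and 294 bp further out. It took in 4423 bp of the neighbouring gene Gpr153 in control and 4685 bp in 2KO cells, and which of these genes the mark belongs to cannot be told from the lists. Hes2, a less studied member of the family, lies on the same chromosome (152158867 to 152162469), 122.8 kb away, and no further peak of either list was called between Hes2 and Hes3. A peak of 3.97 kb in control cells (152157819 to 152161785) and of 3.66 kb in 2KO cells (152158175 to 152161831) covered 81.0 and 82.3% of the Hes2 gene. A second control peak, 4.31 kb wide (152149895 to 152154199), lay 4.67 kb from Hes2 and overlapped 2520 bp of Espn, which encodes an actin-bundling protein. No 2KO peak met it. The share of control bases at Hes2 that was also called in 2KO cells was therefore 43.7%, and 91.0% for the peak over the gene alone, which is the value with a window of 1 kb or of 0.

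Hes1 and Hes7 had no peak in either list. Hes1, the Hes gene known to act in spinous keratinocytes (chromosome 16, 30065357 to 30067796), was 213.6 kb from the nearest control and 490.8 kb from the nearest 2KO peak. Hes7, an oscillating gene of the segmentation clock (chromosome 11, 69118906 to 69124054), was 32.2 kb from the nearest control peak (69156285 to 69159154), which overlapped an end of Alox12b, a lipoxygenase gene of the skin barrier named here after its value was seen. The nearest 2KO peak was 69.5 kb away and overlapped Alox8. The nearest control peak of Hes1 overlapped Lrrc15. Both genes were likewise named after their values were seen, and no link of these neighbours to Hes1 or Hes7 was tested. At the window of 10 kb no gene was a close call. The farthest peaks assigned were the upstream peaks of Hes5, 5.70 kb from the gene in the control and 6.44 kb in the 2KO list, and the nearest one left out was a control peak 19.8 kb from Hes3 (152311677 to 152317859), at a gene called by its own peak. The next 2KO peak there was 21.5 kb away.

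The Hey factors, which act mainly in heart and vessels, were all called in control cells. Hey2 (chromosome 10, 30832359 to 30842783) carried a peak that measured 10.8 kb in control cells (30838484 to 30849305) and 10.1 kb in 2KO cells (30838922 to 30849051). Both lay across the start site, at 30842783 on the minus strand. The control peak reached 6522 bp upstream and 4299 bp into the gene, and the 2KO peak 6268 and 3861 bp. The far part of the Hey2 gene was outside the peak in both lists, which covered 41.2% of the gene in control and 37.0% in 2KO cells.

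Heyl (chromosome 4, 123233556 to 123249870) had a peak inside the gene. It measured 3.64 kb in control cells (123237366 to 123241004) and 4.97 kb in 2KO cells (123236593 to 123241560), and the 2KO peak was the wider one at both edges, by 773 and 556 bp. Hey1 (chromosome 3, 8663359 to 8667038) had a control peak of 2.21 kb (8664686 to 8666894), which covered 60.0% of the gene, and its nearest 2KO peak was 150.5 kb away. This was the narrowest peak at any of the 10 genes. Control peaks under 3 kb met a 2KO peak in 28.7% of cases (251 of 876, 25.8 to 31.7). The share was 42.3% from 3 to 5 kb, the class of Heyl and Hes2, and 55.7% from 5 to 10 kb, the class of Hes5. It was 62.4% (57.3 to 67.1) for the 372 control peaks from 10 to 20 kb, the class of Hes3, Hey2 and Dll4, and 82.1% from 20 kb on. With only peaks of at least 3 kb in both lists Hey1 had no peak in either.

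Of the ligands, Dll1 (chromosome 17, 15367354 to 15376932), which in human epidermis is known from basal stem cells, had no peak in either list. Its nearest peaks were 200.5 kb away in the control and 200.2 kb in the 2KO list. Dll4, the ligand of sprouting endothelium and of thymic epithelium (chromosome 2, 119325784 to 119335666), had a control peak of 11.8 kb (119319660 to 119331451) that lay across its start site, reaching 6124 bp upstream and 5667 bp into the gene. The 2KO peak of 5.41 kb (119319796 to 119325204) began 136 bp from the outer edge of the control peak and ended 580 bp before the start site. In control cells 57.4% of the Dll4 gene and all 300 bases of the promoter were inside the peak, in 2KO cells 0 bases of either. With a window of 0, Dll4 therefore counted as called in the control list only. What remained called in 2KO cells lay over 2 long non-coding RNA genes, Gm52558 (119318745 to 119322324) and Gm14207 (119321199 to 119326197), of which the second overlaps the start of Dll4. Over the genome, 7.49% of the start sites of protein-coding genes in the table lay inside a control peak and 4.36% inside a 2KO peak. Of 973 start sites inside a control peak that met some 2KO peak, 163 (16.8%) lay outside every 2KO peak, as that of Dll4 did. This class was counted after the peaks at Dll4 had been seen.

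To place these widths and edges, peaks of both lists that overlapped each other and no further peak were paired. There were 1550 such pairs, 7 of them at these genes (2 at Hes5). The edges of all pairs differed by a median of 792 bp (quartiles 253 and 1693 bp over 3100 edges). The mean difference over both edges was 49.0 bp for the peak over Hes5, which put it at percentile 1.55 of all pairs, where a low percentile means close edges. Hes2 (201.0 bp), Hes3 (278.0 bp), Hey2 (346.0 bp) and the upstream peak of Hes5 (396.0 bp) lay at percentiles 9.35, 12.7, 16.8 and 19.7, and Heyl (664.5 bp) at 35.9. Dll4 lay at the other end, with 3191.5 bp and percentile 91.5. Of these 7 pairs, 6 therefore had edges closer than those of the median pair, and Dll4 did not. The log2 ratio of 2KO to control width was -0.12 for Hes2, 0.06 for Hes3, -0.15 and -0.02 for the peaks of Hes5, -0.10 for Hey2, 0.45 for Heyl and -1.12 for Dll4. The median over all pairs was 0.13 (quartiles -0.24 and 0.49), and over the 7 pairs it was -0.10. The 2KO peak of Dll4 had 0.459 of the width of its control peak, and 6.52% of all pairs had this ratio or a lower one. These percentiles describe the lists and are no test.

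**Figure D3:**
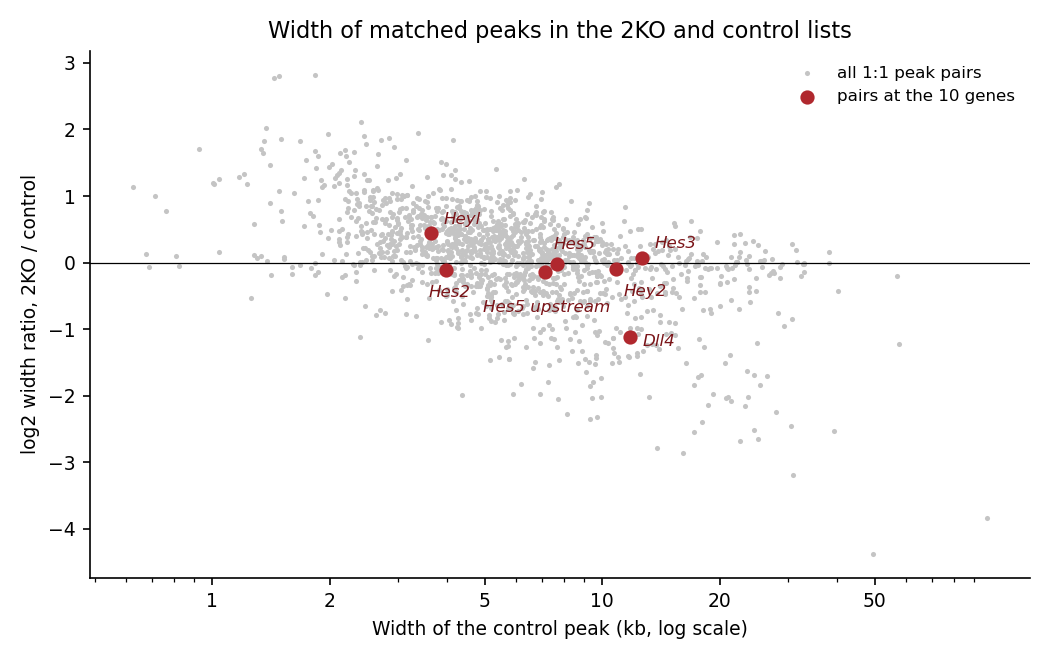
Log2 ratio of 2KO to control peak width (y axis) against the width of the control peak in kb on a log scale (x axis), for all 1550 1:1 pairs (grey) and the 7 pairs at these genes (red). Pairs with a narrow control peak mostly lie above 0, the pairs of Hes2, Hes3, Hes5 and Hey2 lie close to 0, Heyl at 0.45 and Dll4 at -1.12.

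Among the 6 promoters, GTGGGAA, the longer form of the RBPJ core, was found 2 times in Hes5, 2 times in Hey2 and once in Hes7, on either strand. It was found 0 times in Dll4 and at both start sites of Dll1. In Hes5 these letters lay at -226 to -220 on the minus strand and at -83 to -77 on the plus strand, counted from the start site as 0, and in Hey2 at -207 to -201 on the minus and -4 to 2 on the plus strand of the gene. Every TGGGAA of these promoters was part of a GTGGGAA. Of 21044 promoters of protein-coding genes of the same length, 24.2% held TGGGAA and 6.06% held GTGGGAA, and of the 1577 with a start site in a control peak 22.4 and 6.53%. The N-box CACNAG, bound by Hes proteins, was found once in Dll4, once in Hes7 and once at the outer start site of Dll1, against 41.8% of all promoters. The E-box CANNTG occurred once in Hes5, once in Hey2, 2 times in Hes7, 3 times at the outer and once at the inner start site of Dll1, and 0 times in Dll4, against 69.0% of all promoters. TATAAA was in none of the 6 and in 12.7% of all. Of the 1577 promoters with a start site in a control peak, 39.3% held the N-box, 65.0% the E-box and 8.50% TATAAA. These percents count promoters with any match, whereas the values for the 6 promoters are numbers of matches. A match is a run of letters and not a shown site. Counts of the RBPJ core and the N-box overlapped between called and uncalled promoters, and those of the E-box met at 1. No difference between called and uncalled promoters is read from these counts.

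The observed to expected ratio of CpG dinucleotides was 1.04 in the Hes5 promoter, 0.746 in Hey2, 0.595 in Dll4, 0.473 in Hes7, and 0.635 and 0.822 at the outer and inner start sites of Dll1. The median was 0.574 over all promoters and 0.674 over those with a start site in a control peak. Hes5 stood at percentile 94.3 of all promoters and Hes7 at 43.4. The uncalled promoters of Dll1 lay between the called ones of Dll4 and Hes5, so the ratio does not separate called from uncalled genes here. GC content was 72.7% in Hes5, 72.0% in Hey2, 63.7% in Dll4, 63.0% in Hes7, and 56.3 and 62.7% at the outer and inner start sites of Dll1, with a median of 56.7% over all promoters. The 3 called promoters thus had higher GC content than the 3 uncalled ones, with 63.7% in Dll4 next to 63.0% in Hes7. Over 200 bases before the start the same 2 groups stood at 68.0% or more and at 67.5% or less. Both margins are narrow, and both start sites of Dll1 are among the 3 uncalled promoters. The GC content of called promoters over the genome was not set beside these values, so no difference between called and uncalled promoters is read from them.

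**Figure D4:**
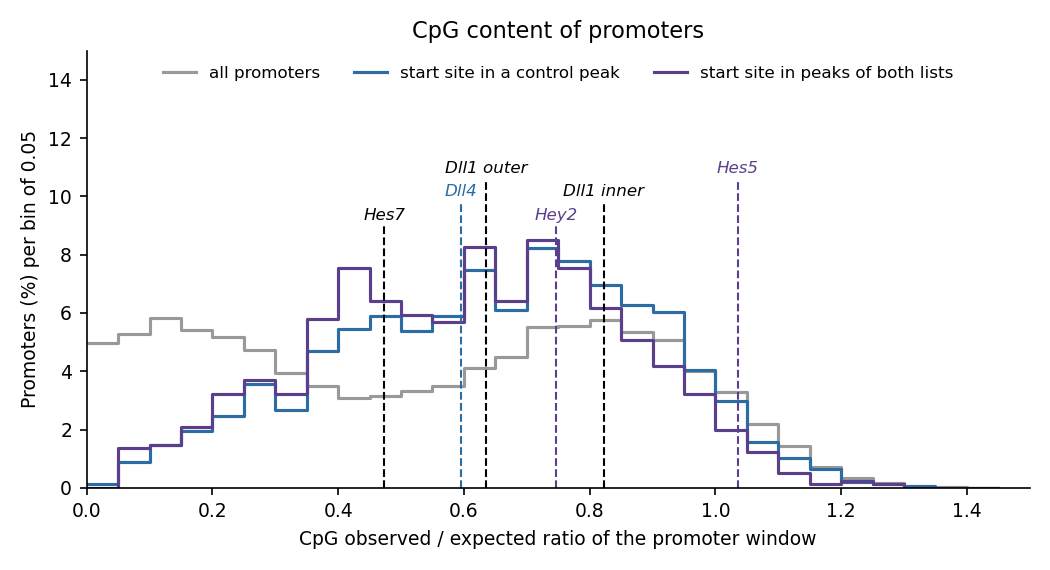
Distribution of the CpG observed to expected ratio (x axis) over 300-base promoter windows, as percent of promoters per bin (y axis), for all promoters (grey), those with the start site in a control peak (blue) and those with it in peaks of both lists (purple); 1 promoter lies beyond the axis. Dashed lines mark the 6 promoters of Hes5 and Hey2 (in both lists), Dll4 (control only) and Hes7 and Dll1 (neither).

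The rest of the pathway was read from a list of 50 genes ordered by role. Of these, 11 had a control peak, 9 a 2KO peak, 8 both, 3 a control peak only and 1 a 2KO peak only, and 38 had none. The shares over all protein-coding genes were 14.9% with a control peak, 11.2% with a 2KO peak and 82.8% with none. None of the 4 receptors Notch1 to Notch4 was called in either list, the state of most genes. Among 6 further ligands, Jag1, Jag2 and Dlk2 had no peak. Dll3, a divergent Delta of the segmentation clock, carried peaks that measured 4.58 kb (control) and 4.49 kb (2KO), beside a second control peak of 2.16 kb that met no 2KO peak. Dner, a ligand-like gene of neurons, had peaks of 3.57 and 5.23 kb. Dlk1, an imprinted ligand-like gene, lay under a control peak of 17.8 kb (chromosome 12, 109444829 to 109462626) with no 2KO counterpart. This was wider than any peak at the 10 genes. Of 4 further bHLH factors of the Hes type, Helt, a factor of brain interneurons, had peaks of 9.30 and 10.3 kb, Bhlhe41, a circadian repressor, a peak of 7.57 kb in control cells only, and Hes6 and Bhlhe40 none.

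Among 13 genes of the nuclear complex and its co-repressors, Rbpjl, the pancreatic relative of Rbpj, was the 1 gene called, with peaks of 12.3 kb (control) and 12.7 kb (2KO), the latter over 99.9% of the former. Rbpj itself, the Maml co-activators and the Tle co-repressors had no peak. Of 15 modulators, Dtx1, a Deltex ubiquitin ligase gene, had 2 peaks in each list, 6.93 and 4.79 kb wide in the control and 10.0 and 8.68 kb wide in the 2KO list. Mib2, which encodes a ligase that activates ligands, had peaks of 3.61 and 2.49 kb, and the 2KO peak ended 88 bp outside the gene. Neurl1a, a ligase gene of the Neuralized family, had 2 control peaks of 1.47 and 2.33 kb and no 2KO peak. The peaks assigned to Dtx3 lay 9.31 and 9.96 kb from the gene and those of Aph1a, a γ-secretase subunit gene and the 1 called of 8 protease genes, 4.05 and 1.78 kb away. The 9.29 kb 2KO peak at Poglut1, a glycosyltransferase gene, lay 1.49 kb away with no control counterpart. These 3 genes were called through their surroundings only.

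**Figure D5:**
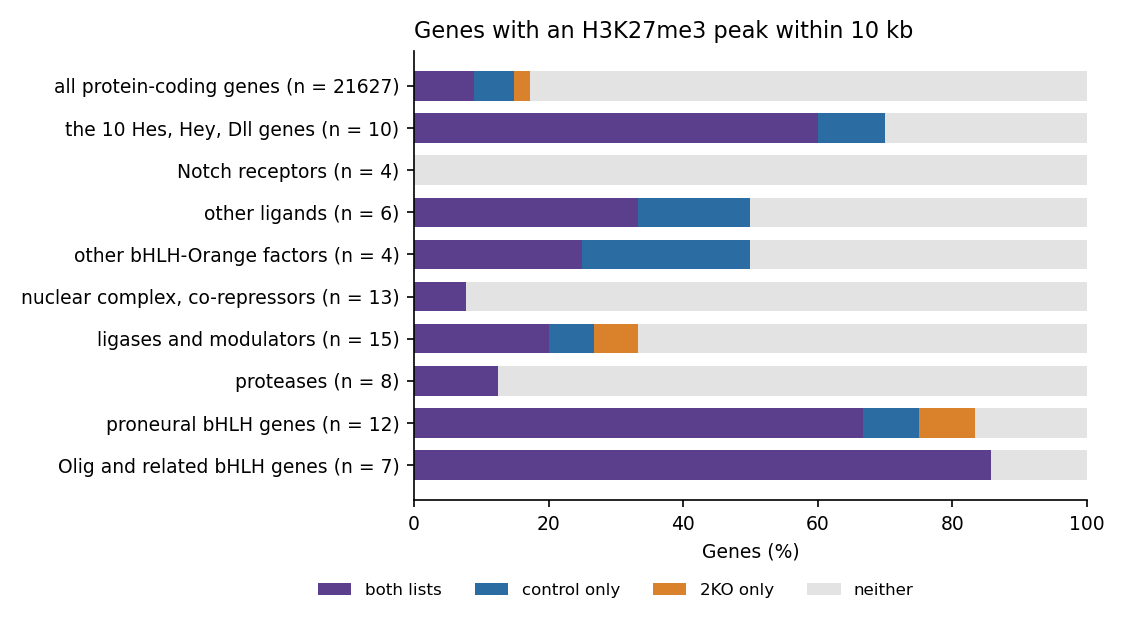
Share of genes (x axis, percent) with an H3K27me3 peak within 10 kb in both lists (purple), in control cells alone (blue), in 2KO cells alone (orange) or in neither (grey), for all 21627 protein-coding genes, the 10 Hes, Hey and Dll genes, each role of the Notch list and 2 lists of other bHLH genes. Of the 10 genes 6 are in both lists, whereas none of the 4 receptors is in either.

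Other bHLH genes were counted by the same rule, with no test of the difference. Of 12 proneural genes, the neuronal counterparts that Hes proteins are known to repress, 9 had a control peak and 8 of these also a 2KO peak. A further 1 had a 2KO peak only. Of 7 genes of the Olig group and its relatives, 6 had a peak in both lists. The shares over all protein-coding genes were 14.9% with a control peak, 11.2% with a 2KO peak and 8.90% with both. The widest control peaks in these bHLH lists were those of Olig2 (33.6 kb, against 24.9 kb in 2KO cells), Neurod2 (28.6 and 24.3 kb), Neurog2 (28.5 and 27.3 kb) and Neurog1 (24.7 and 18.3 kb). The widest control peak at the 10 genes, that of Hes3, measured 12.6 kb and was as wide as or wider than 89.4% of control peaks.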

How the data were processed

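H3K27me3 was mapped by chromatin immunoprecipitation and sequencing. The submitters' processing notes name mm10, Bowtie2 2.3.3.1 and SAMtools 1.9. For each genotype the authors deposited 1 peak list (chromosome, start, end). How peaks were called, at which threshold, against which input and whether on pooled replicates is not stated in these sources. Fewer reads or a higher threshold behind either list would shorten it. The input libraries and the Eed cKO libraries were not analysed here. Starts were taken as 0-based and are printed 1-based.

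Overlaps of at least 1 bp were computed in Python 3.11.15 (numpy 2.4.6, pandas 2.3.3, scipy 1.17.1; figures in matplotlib 3.10.9), with code tested on simulated peaks. Genes and start sites came from RefSeq tables of GRCm38.p6. The gene table has no strand, so start sites are given for genes in the promoter table only; 17273 protein-coding genes have one. Protein sequences were not used here. All 50 Notch list genes, 19 bHLH genes and 21 markers matched by symbol. The members and lists were chosen with earlier results of these data known. The naming rule covered all 10 genes, Ring1, Rnf2 and Eed, and every list gene of the pathway with a peak. It also covered the 4 bHLH genes at the widest control peaks and genes under a member's peak. Some markers and some list genes without a peak were named outside this rule. So were Alox12b, Alox8 and Lrrc15, after their values were seen. In all, 9 alternatives were run.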

Additional observations from a re-analysis of the deposited data

How the results depend on the processing

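No paired analysis was possible because 1 list stands for both libraries of a genotype, which also kept replicates from being left out in turn. Over 9 alternatives, 40 of 45 counts of the 10 genes stayed within 1.5 times of the reported one. The count called in the control list only (1, Hey1) was 2 with a window of 0 and 2 when a peak had to cover the start site (or lie within 1 kb of a gene end where none is given), with Dll4 added in both cases, and 0 with the widest peaks in equal number or with peaks of at least 3 kb. With equal numbers, 1 gene, Heyl, was called in the 2KO list only, since its control peak was too narrow to be kept. Under the start site rule Heyl had no call in either list. The band of 1.5 times is wide for counts this small. The counts in the 2KO list and in both lists, 6 and 6, were 5 and 5 with a window of 0. Under the start site rule they were 4 and 4, still within the band. The control count of 7 was 6 under that rule and with peaks of at least 3 kb. With equal numbers it was 5, and the count in both lists was 5. In the 50-gene pathway list, a window of 0 gave 5 genes with a 2KO peak and 5 in both lists, the start site rule 7, 5 and 5 (control, 2KO, both), and equal numbers 7 with a control peak and 5 in both. Of all protein-coding genes, the percent called in control cells, in 2KO cells and, of the control-called, in both went to 11.2, 7.17 and 55.8 with a window of 0, to 11.7, 7.82 and 56.9 with 1 kb, to 8.82, 5.32 and 52.8 under the start site rule and to 12.0, 9.86 and 63.0 with peaks of at least 3 kb. With 5 kb the first 2 of these were 13.3 and 9.69, with 20 kb 18.0 and 14.0, and with equal numbers the first and last were 10.4 and 69.1. The windows and cut-offs themselves add or remove peaks. Of 59 shares of control bases also called in 2KO cells, 50 were unchanged because the alternative kept the same peaks at the gene, and 9 moved. At 20 kb that of Hes3 was 90.6% in place of 100.0%. With 200 bases the CpG ratio was 0.976 for Hes5, 0.667 for Hey2, 0.516 for Dll4, 0.410 for Hes7, and 0.596 and 0.884 for the outer and inner start sites of Dll1, with no replicate spread to set these against. Depth per library is unknown, so no limit of detection can be given.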

Other observations

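Hes2, Hes3, Hes5 and Heyl share chromosome 4. Between Hes3 and Hes5, 2.67 Mb apart, 11 other control and 6 other 2KO peaks were called, so the 3 Hes genes there did not lie in a single called domain.

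The promoter of Hes5 belongs to the most CpG-rich of 5 equal classes of promoters, and in that class start sites in a control peak were least often also in a 2KO peak. Of start sites in a control peak, the share also in a 2KO peak was 53.3% in the poorest class (32 of 60), then 63.7% (163 of 256), 55.5% (292 of 526), 49.0% (210 of 429) and 36.9% in the richest (113 of 306). The classes also differ in how often the start site lay in a control peak, 1.43% in the poorest, 12.5% in the middle and 7.27% in the richest class. This grouping was made after the values of Hes5 were seen, start sites share peaks, and no test was made.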
